A study of Mus musculus with 72 samples.

Results

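The cytosolic ribosomal protein genes of the mouse hippocampus are described here, as the mRNA read counts of 84 gene models among 55401 in the deposited gene table (0.152%). They were chosen by symbol alone: Rpl or Rps with a number and an optional ending a, l, al or x, plus Rplp0, Rplp1, Rplp2 and Rpsa, with models named as pseudogenes (-ps) left out. The large subunit gave 52 of them, 3 of which encode the acidic stalk, and the small subunit gave 32. The annotation calls 81 protein coding, while Rpl32l and Rpl6l are listed there as processed pseudogenes and Rps4l as a transcribed processed pseudogene. Genes such as Fau, Rps3a1 and Rack1, which also encode ribosomal proteins, carry other names and were followed as a separate list.

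The study sequenced bulk mRNA of 2 parts of the hippocampus, dorsal (DH) and ventral (VH), from male mice labelled as the substrains C57BL/6J (6J) or C57BL/6NJ (6NJ). Under each label the mice were taken from the home cage, 30 min after a cue alone, or 30 min after shock with the cue, which is fear conditioning. Each combination of region, label and condition had 6 libraries, giving 12 groups and 72 libraries, and no group carried a transgene or drug according to the labels. The sources used here give neither ages nor whether the 6 libraries of a group are 6 separate mice. The p-values therefore speak of the spread among libraries, which may be technical.

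Most ribosomal proteins are needed in equal numbers for each ribosome, and ribosomal protein mRNAs are among the most abundant in a cell. Many of these mRNAs start with a C followed by a run of pyrimidines (a TOP tract), through which mTORC1 and LARP1 control their translation and stability as a group. In neurons and glia, ribosomal protein mRNAs are also carried into processes, and protein synthesis after training is needed for lasting memory.

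The tract can be read at annotated start sites. RefSeq windows of GRCm38.p6 were found for 62 of the 84 genes. A C at the start followed by 4 pyrimidines stood at 14 of their 74 windows (18.9%), against 2.51% of 32851 windows of all genes in that table. The windows printed here hold 15 bases before the annotated start and 15 from it, 5′ to 3′ on the gene's strand, with the pyrimidine run from the start in capitals. They are shown because the genes differ in the results that follow. Rps6, Rps10 and Rps15a were higher under the label 6NJ in DH, Rpl38, Rpl15 and Rps15a were lower in DH than in VH, and Rps27 is the sister gene of Rps27l.
Rps6, chr4:86857353-86857382, minus strand: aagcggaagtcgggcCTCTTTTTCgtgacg
Rps10, chr17:27635230-27635259, minus strand: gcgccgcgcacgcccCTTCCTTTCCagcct
Rpl38, chr11:114668565-114668594, plus strand: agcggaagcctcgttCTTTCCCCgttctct
Rps27, chr3:90213634-90213663, minus strand: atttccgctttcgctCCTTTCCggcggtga
Rps15a, chr7:118116133-118116162, minus strand: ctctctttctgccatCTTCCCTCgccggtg
Rpl15, chr14:18270972-18271001, minus strand: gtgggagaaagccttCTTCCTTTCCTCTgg
Rpl4, chr9:64173372-64173401, plus strand: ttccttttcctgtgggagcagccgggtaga
Rpl5, chr5:107900513-107900542, plus strand: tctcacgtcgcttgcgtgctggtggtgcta
Rps27l, chr9:66946071-66946100, plus strand: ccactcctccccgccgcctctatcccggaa
Rpl4, Rpl5 and Rps27l have no such run at the RefSeq start, and both Rpl4 and Rpl5 were among the genes that fell after the cue. The GENCODE model of Rpl4, however, starts at 64173375, inside the printed window, at a C followed by a run of pyrimidines. An annotated start can lie some bases from the start a cell uses, so a missing run says only that these letters are not at this position.

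In the same windows of 250 bases before to 50 after the start, CCGGAAG on either strand, the core of an ETS factor site, stood in 35.1% of the ribosomal protein windows and in 8.86% of all windows. TATAA on either strand was at 24.3% and 24.9%. These are counts of letters and were not set against any readout.

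Libraries held 30330382 to 56258370 gene counts. Levels are given as CPM, counts per 1000000 after TMM scaling of library totals. The ribosomal protein genes together took 0.758% to 1.17% of the gene counts of a library, with a median of 0.876%. Rpl4, a large subunit protein, had the most counts, at 447 ± 39.7 CPM (SD, n = 72), ahead of Rplp1 at 367 ± 48.1 CPM and Rpl3 at 312 ± 29.2 CPM. At the other end, Rpl10l was at 0 counts in all 72 libraries, Rpl39l was at 0 in 31 libraries, and Rpl3l was at 0.326 ± 0.123 CPM. These 3 are the sister genes of Rpl10, Rpl39 and Rpl3, and are known from testis or striated muscle. A low-count filter passed 80 genes in DH and 81 in VH. The genes it left out were Rpl10l, Rpl32l and Rpl39l in both regions and Rpl6l in DH.

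Per length, the order changed. On the TPM scale of the deposited transcript estimates, summed by gene, Rplp1 was highest at 1760 ± 126, followed by Rps29 at 1520 ± 115, Rpl41 at 1490 ± 136 and Rpl13a at 1220 ± 97.6 (SD, n = 72). Of the 79 genes with a mean count of at least 100, Rpl12 (29.0 ± 3.24), Rps4l (36.9 ± 7.01) and Rps27l (42.0 ± 6.04) were lowest on this scale. The 2 deposited tables did not give the same reads to a gene. The estimated counts were 1.44 times the gene counts at the median of these 79 genes, against 1.0 over all genes with as many counts. The ratio was lowest for Rpl12, at 0.156, and highest for Rpl29, and 21 genes were above 2. Ribosomal protein genes have many processed copies in the genome, and reads that fit several places can be handled differently by counting and by estimation; their part in the ratio was not tested. Over the 79 genes, log2 levels per length from the 2 tables correlated at r = 0.504. The level of a ribosomal protein relative to the others is therefore uncertain in these files. In addition, 28 of the genes share exon bases with another gene model on the same strand, many of them small nucleolar RNAs in introns of some isoforms, and 18 with a model on the opposite strand.

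**Figure D1:**
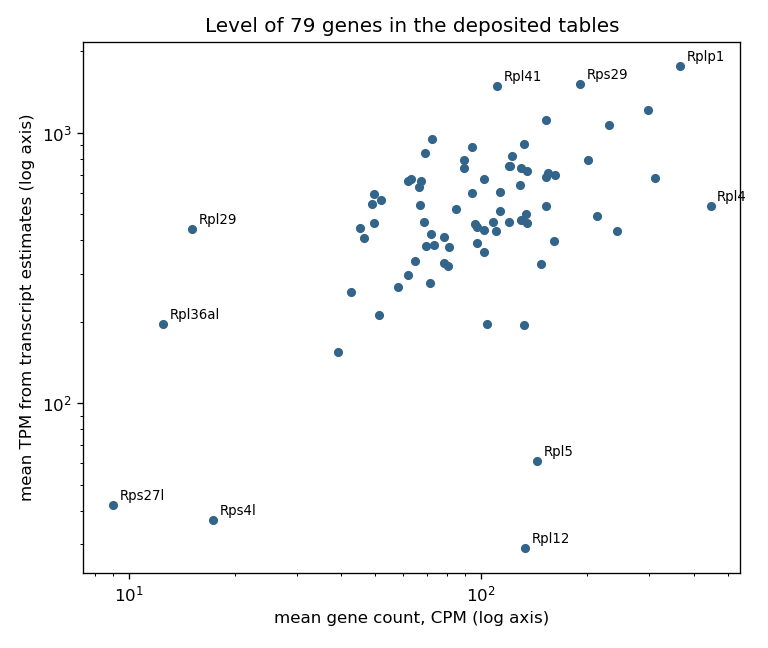
Mean level of the 79 ribosomal protein genes with a mean count of at least 100, as gene counts in CPM (horizontal, log axis) and as TPM from transcript estimates (vertical, log axis), over 72 libraries. Rpl12 and Rpl5 sit far below the rest in TPM for their CPM, and Rpl29 sits above them at 440 TPM for 15.1 CPM.

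The genes rose and fell together from library to library. With the group means removed, the median correlation between pairs of the 78 genes with a mean of at least 10 CPM was 0.905 over the 72 libraries. All genes of a library share its depth and its scaling factor. The mean of their log2 CPM varied around its group mean with an SD of 0.116, and its correlation with log2 library total was -0.0649. Rps4l stood outside this pattern, at r = 0.07 with the mean of the others, followed by Rpl15 at 0.71 and Rps15a at 0.79. Among other genes, those most like the mean included Gm45713 (r = 0.987), which overlaps Rpl13a, Pfdn5 (0.979), a prefoldin subunit, Kxd1 (0.967) and Cox6a1 (0.961), a subunit of cytochrome c oxidase. The mean stood highest in the VH home cage library 41A labelled 6NJ, at 7.06 log2 CPM, where the genes took 1.17% of counts and mitochondrial genes 9.44%. Library 42B of the same group was next there, at 1.07% and 9.36%. In DH, library 39B of the group shock and cue labelled 6NJ was highest, at 6.90 log2 CPM.

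**Figure D2:**
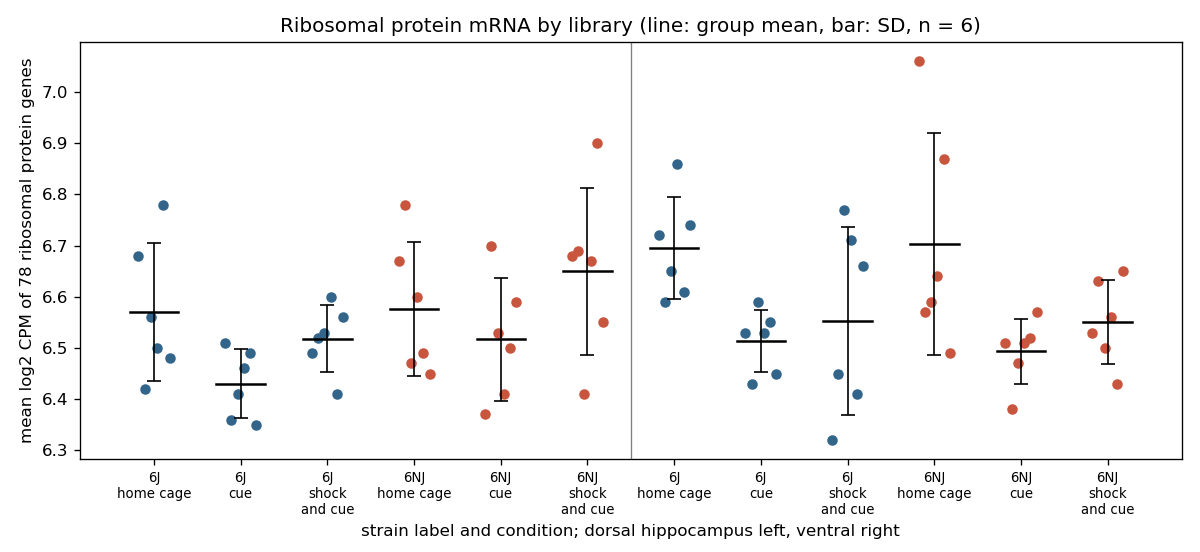
Mean log2 CPM of 78 ribosomal protein genes in each of the 72 libraries, by strain label and condition, with DH at the left and VH at the right (line: group mean, bar: SD, n = 6). In VH the home cage groups have the highest means, and library 41A labelled 6NJ reaches 7.06.

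As a check of the strain labels, Nnt, known to be deleted in part in C57BL/6J, was at 18.4 to 22.9 CPM in the 36 libraries labelled 6NJ and at 34.3 to 44.1 CPM in the 36 labelled 6J. Gabra2, known to be low in C57BL/6J, was at 91.2 to 159 CPM and 220 to 330 CPM. Both go against the labels in all 72 libraries, so every direction between strains below is one between libraries labelled 6NJ and 6J. Markers of CA1 (10 genes) summed to 948 to 1440 CPM and markers of dentate granule cells (11 genes) to 421 to 1040 CPM over the 72 libraries. Both sets of markers were thus read in every library, but with no other tissue beside them these sums do not check the tissue or region labels. Cue codes 32A, 32B, 34A and 34C and home cage codes 35A and 35B, labelled 6J, held the acute-phase gene Lcn2 above 2 CPM in both regions, and the counts of genes were also made without them.

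After the cue alone, ribosomal protein mRNA was lower than in the home cage in VH under both labels. The summed share of counts had medians of 0.951% (home cage) and 0.865% (cue) under the label 6J, and of 0.914% and 0.854% under 6NJ. Each of the 81 genes tested had a log2 fold change below 0 in both comparisons, with medians of -0.185 under 6J and -0.237 under 6NJ, against -0.004 and -0.009 over all genes. These genes rose and fell together between libraries, so counts of signs or unadjusted p-values here and below are not counts of independent results. The share of all genes at an unadjusted p under 0.05 is not given for any comparison. By edgeR's quasi-likelihood test with Benjamini-Hochberg adjustment over all genes, 6 fell under the label 6J (7.41%) and 47 under 6NJ (58.0%), where 5.07% and 5.89% of all genes tested fell. None rose, against 7.78% of all genes under 6J and 6.97% under 6NJ. Under 6J the share called is thus near that of all genes. An unadjusted p under 0.05 was seen for 64 of the 81, which cannot be set against all genes here. The interaction of the cue response with the strain label passed for 0 of 81 genes by edgeR and DESeq2, with 1 at an unadjusted p under 0.05. By edgeR it passed for 0 of all 19597 genes tested, so the 2 counts do not show a difference between labels.

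The 6 genes under the label 6J all encode large subunit proteins, as do 46 of the 81 genes tested. The median log2 fold changes were alike, at -0.185 for large subunit, -0.173 for small subunit and -0.187 for the 3 stalk genes. Rpl3, which lies near the peptidyl transferase centre, was at 312, 339 and 367 CPM in home cage libraries (lowest, median and highest of 6) and at 266, 289 and 307 CPM after the cue. The groups did not overlap, and the log2 fold change was -0.22 ± 0.0570 (SE, adjusted p = 0.00986). Rpl10a was at 66.3, 68.4 and 72.2 CPM and at 56.4, 60.2 and 63.0 CPM, again with no overlap (-0.20 ± 0.0547, adjusted p = 0.0127). Rpl4 fell from a median of 449 to 407 CPM, and its highest cue library, at 426 CPM, lay below its lowest home cage library, at 433 CPM (-0.16 ± 0.0529, adjusted p = 0.0384). Rpl5, which carries 5S ribosomal RNA into the large subunit, fell from 141 to 128 CPM, also without overlap (-0.16 ± 0.0561, adjusted p = 0.0488). Rpl18 fell from 73.2 to 66.0 CPM, without overlap, and Rpl23 from 105 to 90.0 CPM, with overlap. In all, 19 of the 81 genes had groups that did not overlap, against 5.12% of all genes tested.

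Under the label 6NJ the fall covered more genes but rested on higher home cage libraries. The 47 genes comprised 31 of 46 large subunit, 14 of 32 small subunit and 2 of 3 stalk genes, and 5 of the 6 genes called under 6J were among them (83.3% of the 6 and 10.6% of the 47); Rpl5 was not. Rpl18 was at 66.6, 73.3 and 98.0 CPM in the home cage and at 62.0, 66.4 and 68.6 CPM after the cue, so the ranges overlapped (-0.24 ± 0.0663, adjusted p = 0.0144). Rpl13 (-0.32 ± 0.0908) and Rps2 (-0.26 ± 0.0770), a small subunit protein at the mRNA entry channel, showed the same picture, as did Rpl27 and Rps10 (both -0.25). Groups failed to overlap for 2 of the 81 genes, against 3.33% of all genes tested. Rps4l, the copy of Rps4x listed as a transcribed pseudogene, fell most in proportion to its error. It was at 20.3, 24.8 and 25.7 CPM in the home cage and at 15.1, 17.9 and 20.3 CPM after the cue (-0.44 ± 0.0888, adjusted p = 0.00156). Rps4x itself was at medians of 134 and 128 CPM (-0.13 ± 0.0578, adjusted p = 0.114).

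Single libraries decided how many genes passed. Under the label 6NJ the count ran from 1 to 68 when each cue or home cage library was left out in turn. It was 1 without home cage library 41A, which left Rps4l, 2 without home cage library 42B or without cue library 38B, and 68 without home cage library 42C. Calls over all genes, in either direction, moved too, at 1075, 1336, 1250 and 3663 in these fits, in that order. With all libraries, 1365 of all genes rose and 1154 fell. Without both 41A and 42B, 1 ribosomal protein gene and 464 of all genes passed. The median log2 fold change of the ribosomal protein genes was then -0.082 in place of -0.237. A fit of the cue and home cage groups alone called 1 ribosomal protein gene, with the number over all genes not given here. Under 6J the count of ribosomal protein genes ran from 2 to 15 with medians of -0.157 to -0.205, while calls over all genes ran from 1394 to 3067. The count was 0 (median -0.147) without the codes with Lcn2 above 2 CPM, which left 2 cue and 4 home cage libraries. In that fit 0 of all 20437 genes tested fell and 0.23% rose. A fit of the 2 groups alone called 60 ribosomal protein genes, again with the number over all genes not given here. The direction is thus shared by the 2 labels, and the number of genes called is not a stable quantity.

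**Figure D3:**
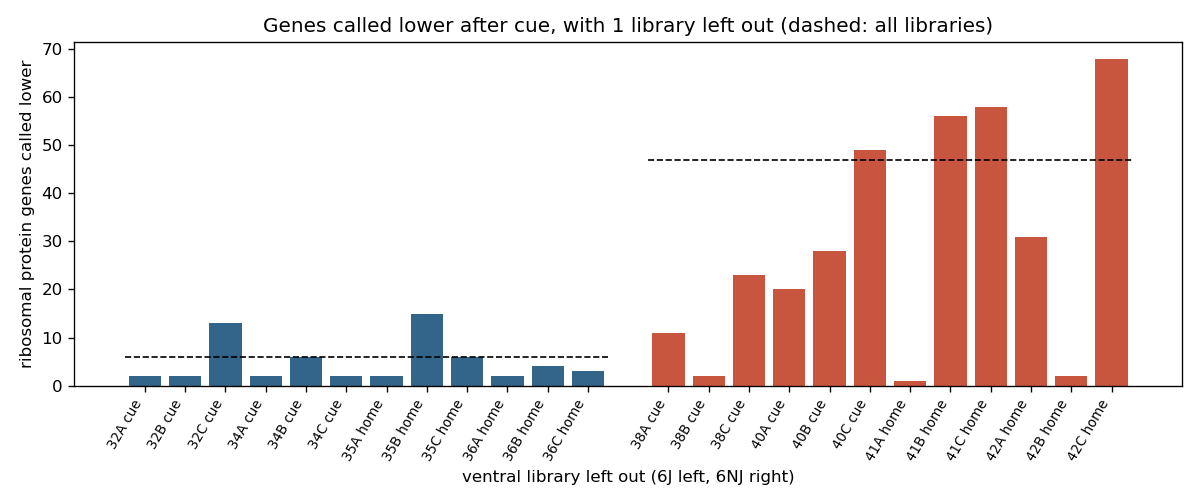
Number of ribosomal protein genes called lower after the cue than in the home cage in VH, with 1 library left out at a time (6J at the left, 6NJ at the right; dashed lines: 6 and 47 genes with all libraries). Leaving out 41A, 42B or 38B under 6NJ brings the count to 1 or 2. Calls over all genes also fell in these fits, to 1075, 1336 and 1250.

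Mitochondrial transcripts moved with these values. In VH, the share of mitochondrial counts was 7.33% to 9.34% in the home cage and 6.15% to 7.36% after the cue under 6J, and 6.43% to 9.44% and 6.15% to 7.13% under 6NJ. Of 33 mitochondrial genome genes 9 fell under 6J and 7 under 6NJ, with medians of -0.367 and -0.325. Their part in the fall of ribosomal protein mRNA was not tested. Under the same comparisons, none of the marker genes of oligodendrocytes (12), astrocytes (11) and choroid plexus (11) passed under either label, and of 10 neuron genes none passed. In each of the other cell type lists, at most 1 gene passed. In bulk tissue, fewer cells of a type and less RNA per cell cannot be told apart.

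Genes that share the TOP tract or the path to the ribosome were followed as lists. Of 24 TOP mRNAs of translation factors and small nucleolar RNA hosts, 7 fell after the cue in VH under 6J and 5 under 6NJ, against 5.07% and 5.89% of all genes, with none higher. Their medians were -0.109 and -0.099. They included the host genes Snhg1 (-0.29 ± 0.0730 under 6J and -0.32 ± 0.0731 under 6NJ) and Snhg12 (-0.27 under both), and Eif3f, a subunit of initiation factor 3 (-0.19 ± 0.0631 and -0.25 ± 0.0630). Eef2, the translocation factor, fell under 6J (-0.13 ± 0.0374). Fau, a ribosomal protein gene of another name, fell under 6NJ (-0.25 ± 0.0835). Mitochondrial ribosomal proteins are a separate set, and 14 of 78 fell under 6NJ, while 6 fell and 1 rose under 6J. Of 47 models named as ribosomal protein pseudogenes, 7 fell under 6NJ and 2 under 6J, against the same shares of all genes. Without the codes with Lcn2 above 2 CPM, none of the genes of these lists fell under 6J, as none of all genes did.

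Regulators did not all go the same way. Of 22 genes around mTORC1 and LARP1, 4 rose and 1 fell in VH under 6J, and 3 rose and 2 fell under 6NJ. Ddit4, an inhibitor of mTORC1 induced by stress, rose under both (0.54 ± 0.0479 and 0.55 ± 0.0479, adjusted p = 3.18e-10 and 1.46e-10), and Rps6kb2, an S6 kinase, fell under both (-0.32 ± 0.0624 and -0.30 ± 0.0626). Ipo7, an importer of ribosomal proteins, rose (0.21 ± 0.0494 and 0.22 ± 0.0494), whereas Ipo9 fell (-0.13 ± 0.0283 and -0.15 ± 0.0283). Nop53, which works late in large subunit assembly, fell (-0.26 ± 0.0613 and -0.19 ± 0.0610), among 19 assembly and export genes of which 1 rose and 1 fell under 6J and 2 rose and 1 fell under 6NJ. Mdm2, whose protein binds free Rpl5 and Rpl11, rose (0.19 ± 0.0339 and 0.21 ± 0.0339). Of 12 immediate early genes, 11 rose under 6J and 12 under 6NJ, so the cue and home cage groups differed in these genes. The part of the cue itself in this rise was not tested.

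In DH 1 gene passed after the cue, and the responses of the regions were not tested against each other. Under the label 6J all 80 genes tested had a log2 fold change below 0 (median -0.139), and 1 fell (1.25%, against 2.08% of all genes tested) and none rose, against 3.81%. This was Rpl3, at 291, 315 and 346 CPM (home cage) and 254, 278 and 290 CPM (cue), with no overlap (-0.21 ± 0.0531, adjusted p = 0.0120). Without the codes with Lcn2 above 2 CPM no gene passed, with a median of -0.135. Under the label 6NJ 0 of 80 passed by edgeR, against 2.36% of all genes, with 1 at an unadjusted p under 0.05 and 1 by DESeq2 (median -0.055). Rps4l there was at a home cage median of 18.1 CPM and a cue median of 14.5 CPM, with overlap (-0.29 ± 0.0848, adjusted p = 0.0629). The interaction in DH passed for 0 of 80 genes by edgeR and by DESeq2, with 0 at an unadjusted p under 0.05. By edgeR it passed for 0 of all 19647 genes tested.

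After shock with the cue, values lay between the cue and the home cage in VH. No gene passed under the label 6J by edgeR or DESeq2 (20 of 81 at an unadjusted p under 0.05, median -0.147), against 3.11% of all genes. Rpl10a was closest there, at 66.3 to 72.2 CPM in the home cage and 57.3 to 67.6 CPM after shock (-0.16 ± 0.0547, adjusted p = 0.104). Under 6NJ 2 of 81 fell (2.47%, against 4.10% of all genes tested), namely Rpl3 (-0.18 ± 0.0570, adjusted p = 0.0429) and Rpl29 (-0.27 ± 0.0878, adjusted p = 0.0468), and 80 of 81 had values below 0 with a median of -0.173. For Rpl3, the home cage libraries were at 314, 334 and 419 CPM and those after shock at 291, 313 and 339 CPM, with overlap. In DH 0 of 80 passed under either label by edgeR or DESeq2, against 1.76% of all genes under 6J and 3.57% under 6NJ. The medians were -0.055 under 6J (2 at an unadjusted p under 0.05) and 0.086 under 6NJ (3 at an unadjusted p under 0.05). The difference of these responses between labels passed for 0 of 80 genes by edgeR and by DESeq2, with 5 at an unadjusted p under 0.05. By edgeR it passed for 0 of all 19647 genes tested.

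Shock with the cue was also set against the cue alone, over both labels, 12 libraries against 12. The 80 genes tested in DH had log2 fold changes above 0, with a median of 0.113, and 52 had an unadjusted p under 0.05. As the genes rise and fall together, these 52 are not independent results, and the share of all genes at that level is not given here. None passed after adjustment by edgeR or DESeq2, and none of the 19647 genes tested in DH did (0.0%). Rpl18 was closest, at medians of 70.4 CPM after shock and 64.9 CPM after the cue (0.14 ± 0.0444, adjusted p = 0.426). In VH 80 of 81 were above 0 with a median of 0.043, and 1 had an unadjusted p under 0.05. Comparisons of cue and of shock with the home cage share their home cage libraries, so their values are given here side by side and no overlap is drawn from them.

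**Figure D4:**
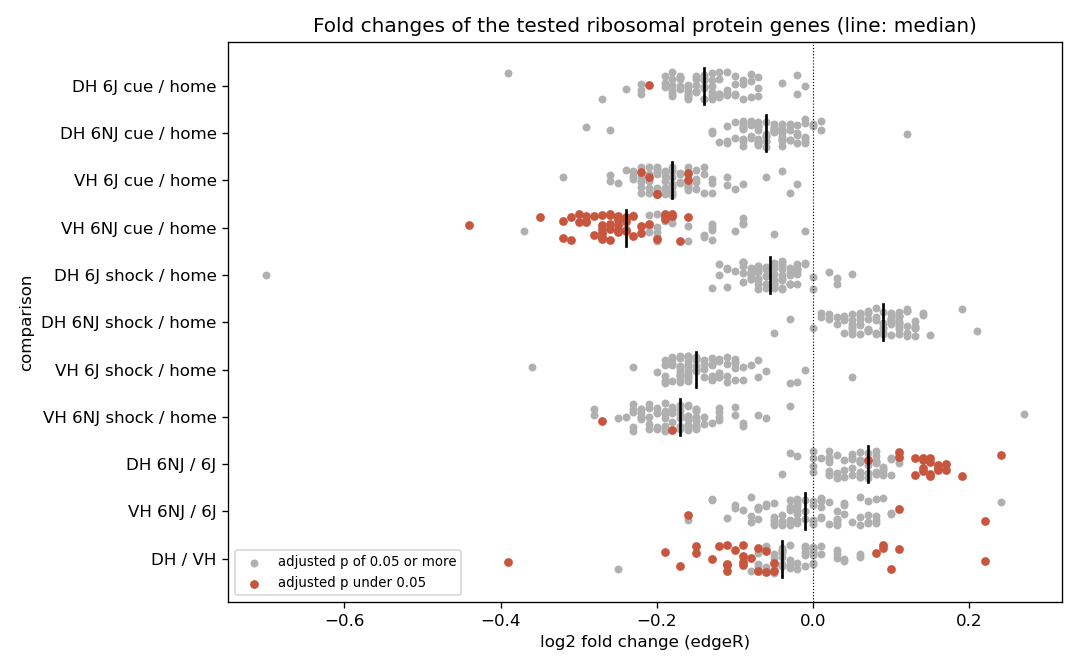
Log2 fold change of each tested ribosomal protein gene (80 in DH, 81 in VH and between regions) in 11 comparisons, as first-named over second-named group; red points have an adjusted p under 0.05 and black lines mark medians. Cue against home cage lies below 0 in VH under both labels, and 6NJ against 6J lies mostly above 0 in DH.

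Between strain labels, as the mean of the 3 conditions, most calls were higher under 6NJ and were made in DH. In DH 20 of 80 were higher (25.0%, against 8.06% of all genes tested) and none lower (against 6.64%), with a median of 0.074 and 74 of 80 above 0. In VH 2 of 81 were higher, against 4.87% of all genes, and 1 lower, against 5.06%, with a median of -0.009. The difference of the regions between labels passed for 0 of 81 genes by edgeR and DESeq2, with 3 at an unadjusted p under 0.05, so the contrast between DH and VH was not shown by the test. It was above 0 for 81 of 81 genes (median 0.084), and 0.00494% of all genes passed that test.

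Among the 20 genes in DH were 13 of 45 large subunit, 6 of 32 small subunit and 1 of 3 stalk genes tested. Rpl6, a large subunit protein, was at 105, 111 and 131 CPM in 18 libraries labelled 6J and at 112, 123 and 141 CPM in 18 labelled 6NJ (0.15 ± 0.0286, adjusted p = 0.000312). Rpl4 was at 388, 428 and 491 CPM and at 417, 482 and 543 CPM (0.15 ± 0.0306, adjusted p = 0.000748). Rpl27 of the large subunit was at medians of 35.5 and 41.0 CPM (0.19 ± 0.0393, adjusted p = 0.00116), and Rpl23 at 95.2 and 106 CPM (0.17 ± 0.0381, adjusted p = 0.00160). The ranges of the labels overlapped for each of these genes.

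Further genes higher in DH under 6NJ were Rpl5 (0.14), Rpl7a (0.14), Rpl24 (0.16), Rplp0 of the stalk base (0.13 ± 0.0367, adjusted p = 0.0169) and Rps6, the substrate of S6 kinases (0.13 ± 0.0380, adjusted p = 0.0169). Rps6 was at medians of 68.4 CPM under 6J and 74.7 CPM under 6NJ. Not every gene followed. Rps27 (-0.00 ± 0.0503), Rps29 (0.01 ± 0.0494), Rps14 (0.02 ± 0.0481), Rpl10 (-0.00 ± 0.0316) and Rpl11 (-0.03 ± 0.0426) lay near 0, and none of them passed. For Rpl10 the estimated transcript counts gave 0.11 with an adjusted p of 0.0454. Rplp1 (0.08 ± 0.0501), Rplp2 (0.08 ± 0.0375), Rpsa (0.08 ± 0.0445), Rps19 (0.10 ± 0.0473), Rps27a (0.11 ± 0.0448), Rpl13a (0.09 ± 0.0458), Rpl38 (0.06 ± 0.0510) and Rpl41 (0.08 ± 0.0487) did not pass either.

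The count of 20 was 17 to 23 when each of the 36 DH libraries was left out in turn, and 6 without the codes with Lcn2 above 2 CPM (median 0.065), which removes 6 of 18 libraries labelled 6J. By condition, the median in DH was 0.005 in the home cage, 0.081 after the cue and 0.134 after shock with the cue. No gene passed in the home cage by edgeR, against 0.931% of all genes, with 1 at an unadjusted p under 0.05 and 1 by DESeq2. After the cue Rpl4 passed (0.18 ± 0.0531, adjusted p = 0.0490), 1 of 80, against 1.5% of all genes. After shock Rpl6 (0.21 ± 0.0494), Rpl23 (0.28 ± 0.0659) and Rpl27 (0.25 ± 0.0679) passed, 3 of 80 against 1.44%. The interaction of condition and label passed for none of them, and by edgeR for 0 of all 19647 genes tested in DH.

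Other genes of the ribosome's path also were higher under the label 6NJ in DH. Of 19 genes of large subunit assembly and export 9 were higher and none lower (median 0.066), against 8.06% and 6.64% of all genes, among them Rrs1 (0.22 ± 0.0291, adjusted p = 8.93e-07), a factor for 5S particle recruitment, and Sbds (0.11 ± 0.0245). Of 24 TOP mRNAs 9 were higher, including Npm1 (0.14 ± 0.0238) and Eef1a1 (0.10 ± 0.0256). Rpl7l1 (0.14 ± 0.0219) and Rack1 (0.09 ± 0.0298), ribosomal protein genes of other names, were higher too. Nuclear complex I subunits were higher for 13 of 36 and mitochondrial ribosomal proteins for 12 of 78. Of 12 oligodendrocyte markers, 9 were higher in DH under 6NJ, and their summed level was 6680 to 11500 CPM under 6J and 8140 to 13600 CPM under 6NJ. In VH 1 of the 12 was higher. Without the codes with Lcn2 above 2 CPM, where 4.43% of all genes were higher, 5 of the 19 assembly genes, 2 of 24 TOP mRNAs, 7 of 36 complex I subunits, 9 of 78 mitochondrial ribosomal proteins and 3 of 12 oligodendrocyte markers were higher. The part of oligodendrocyte RNA in the difference in ribosomal protein genes was not tested.

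Rps4l and Rpl4 were called between labels in both regions. In the home cage in VH, Rps4l was at 16.7, 19.8 and 21.6 CPM under 6J and at 20.3, 24.8 and 25.7 CPM under 6NJ, with overlap (0.33 ± 0.0885, adjusted p = 0.0495), 1 of 81 genes against 0.765% of all genes. In the home cage in DH it was at 13.2 to 14.9 CPM and at 14.1 to 19.5 CPM (0.33 ± 0.0851, adjusted p = 0.0503). As the mean of conditions DH differed by 0.24 ± 0.0492 (adjusted p = 0.00101), and VH differed by 0.22 ± 0.0515 (adjusted p = 0.00496). Rps4l lies on chromosome 6 from 148354656 to 148355598, plus strand, with no overlapping gene model. As a copy of Rps4x it may exchange reads with that gene, which was not tested, and it is uncertain as an expression level. In the estimated transcript counts the differences were 0.24 and 0.22. After the cue and after shock in VH no gene passed between labels by edgeR or DESeq2, against 1.76% and 0.771% of all genes, with 4 and 2 at an unadjusted p under 0.05.

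In VH over all conditions, Rpl4 was higher under 6NJ, at 362, 430 and 499 CPM under 6J and 412, 450 and 574 CPM under 6NJ (0.11 ± 0.0305, adjusted p = 0.0170). Rpl23a, a binding site for nascent chain factors at the tunnel exit, was lower, at 58.9, 73.5 and 91.4 CPM and at 57.7, 64.2 and 90.6 CPM (-0.16 ± 0.0456, adjusted p = 0.0185). Both ranges overlapped. Rpl11 (-0.13 ± 0.0459, adjusted p = 0.0568) and Rps27l (-0.13 ± 0.0511, adjusted p = 0.117) did not pass, and the stalk genes Rplp0, Rplp1 and Rplp2 were at 0.04, -0.03 and 0.03.

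**Figure D5:**
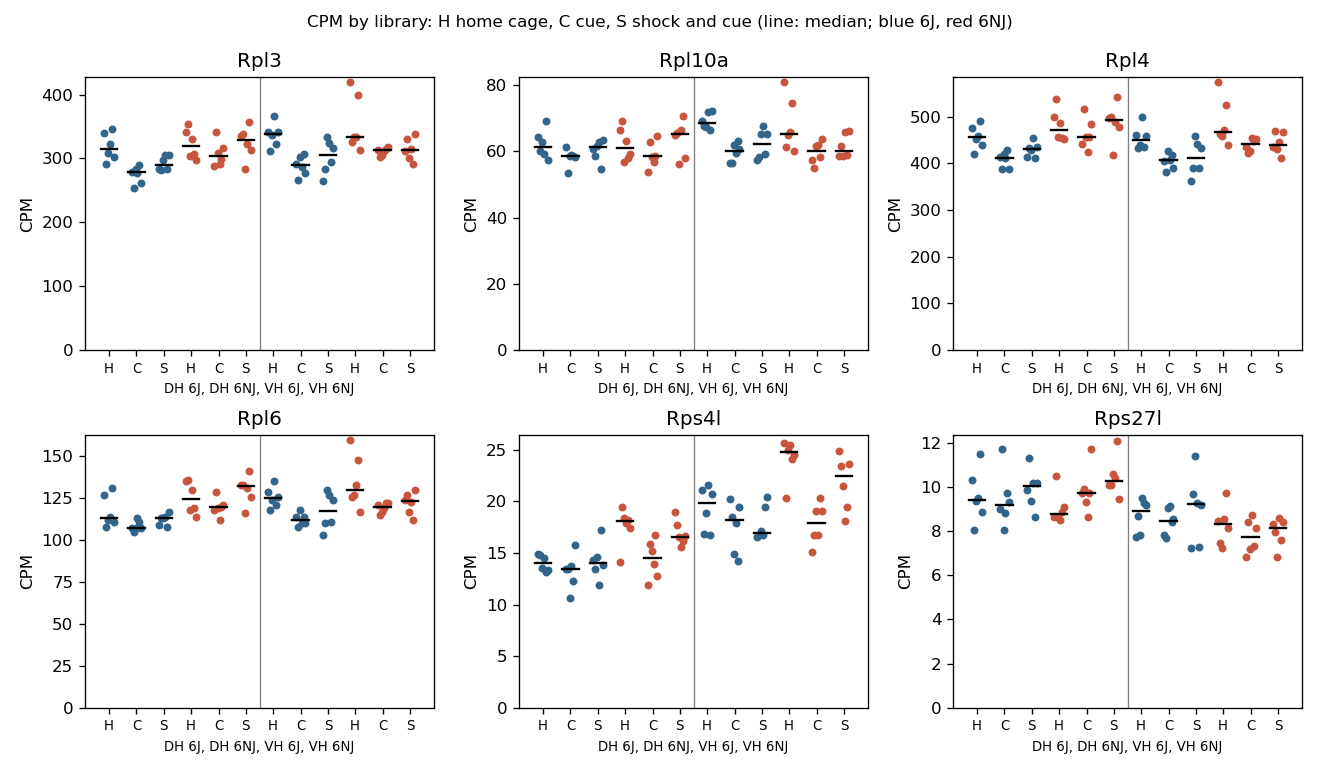
CPM of 6 ribosomal protein genes in each library, by group (H home cage, C cue, S shock and cue; 6 libraries each; black lines are medians; blue 6J, red 6NJ; DH left and VH right of the grey line; axes start at 0). Rpl3 and Rpl10a in VH 6J show cue libraries below all home cage libraries, and Rps4l is higher in VH than in DH.

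Between regions, most of the ribosomal protein genes that passed were lower in DH. With the mean of all groups, 6 of 81 genes were higher in DH, against 32.7% of all genes tested, and 23 were lower, against 30.9%. Together 35.8% of the genes passed, against 63.6% of all genes, and the median was -0.043. Large subunit genes, 46 of the 81 tested, made up 20 of the 23 lower and 3 of the 6 higher genes. Rps4l differed most, at 14.2, 19.5 and 25.7 CPM in 36 VH libraries and 10.6, 14.7 and 19.5 CPM in 36 DH libraries (-0.39 ± 0.0365, adjusted p = 6.50e-15). Rps27l, the sister gene of Rps27 that responds to p53, went the other way, at 6.83, 8.39 and 11.4 CPM in VH and 8.03, 9.60 and 12.1 CPM in DH (0.22 ± 0.0358, adjusted p = 2.45e-07). Rps27 did not pass (-0.04 ± 0.0372, adjusted p = 0.398). The ranges of the regions overlapped for each of the 81 genes, while 0.464% of all genes had ranges that did not overlap. Without the codes with Lcn2 above 2 CPM, 5 genes were higher and 18 lower (median -0.049).

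The other genes higher in DH were Rplp0 (0.11 ± 0.0266, adjusted p = 0.000153), Rpl7 (0.10 ± 0.0240), Rpl5 (0.08 ± 0.0228), Rps9 (0.09 ± 0.0283) and Rpl30 (0.09 ± 0.0320). Lower in DH were Rpl41, a peptide between the subunits (-0.19 ± 0.0398, adjusted p = 4.22e-05), Rpl36 (-0.17 ± 0.0419), Rpl38, known for its role in translation of Hox mRNAs (-0.15 ± 0.0389), Rps15 (-0.15 ± 0.0387), Rps15a (-0.06 ± 0.0164) and Rpl15 (-0.06 ± 0.0166). Rpl36a (-0.11 ± 0.0334) and its intronless sister Rpl36al (-0.09 ± 0.0356, adjusted p = 0.0316) fell on the same side, as did Rpl39 (-0.12 ± 0.0363). Rpl3 and Rpl10a were at -0.05 each (adjusted p = 0.0450 and 0.0331). Rps6 (0.04), Rpsa (-0.01), Rps19 (-0.05), Rps14 (0.06), Rps29 (-0.07), Rps27a (0.01), Rplp1 (-0.04), Rplp2 (0.00), Rpl13a (-0.03) and Rpl3l (-0.00) did not pass.

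The split differed between labels: 1 gene was higher and 29 lower in DH under 6J (median -0.078), against 27.8% and 25.9% of all genes, and 8 were higher and 2 lower under 6NJ (median -0.002), against 25.6% and 24.8%. Without the codes with Lcn2 above 2 CPM, 13 were lower and none higher under 6J (median -0.091), where 19.9% of all genes were lower. The difference between labels itself passed for none, as given above. Markers moved with the regions. All 12 oligodendrocyte and 11 choroid plexus markers were higher in DH, and 8 of 10 neuron markers were lower. Summed markers of dentate granule cells, in contrast, were at 421 to 774 CPM in VH and 545 to 1040 CPM in DH. Those of CA3 and CA2 were at 522 to 718 and 601 to 845 CPM, and those of CA1 at 967 to 1250 and 948 to 1440 CPM. Summed oligodendrocyte markers were at 3460 to 8830 CPM in VH and 6680 to 13600 CPM in DH, and summed choroid plexus markers at 31.0 to 2410 and 48.5 to 9130 CPM. Mitochondrial ribosomal proteins were lower in DH for 53 of 78 and higher for 5, and complex I subunits lower for 29 of 36. Of all genes tested between regions, 30.9% were lower and 32.7% higher in DH. The part of these markers in the differences in ribosomal protein genes was not tested.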

How the data were processed

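The authors deposited whole-number counts of reads per gene and estimated counts per transcript for 72 libraries, both without normalization. Per the labels' protocols, RNA was prepared as stranded mRNA libraries and read as single-end reads of 75 bp. HISAT2, featureCounts, kallisto, FastQC, DESeq2 and GRCm38 are named in the submitters' processing notes. The sources used here state neither versions nor the strand setting. Symbols and exons came from GENCODE vM21, whose gene starts and ends match 54821 of the 55401 deposited models.

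For gene counts, edgeR 4.0.16 was run under R 4.3.3, with TMM, filterByExpr by group, robust glmQLFit, the quasi-likelihood F-test and Benjamini-Hochberg adjustment over all genes, at 0.05. Each fit had 1 mean per group and no covariate, with the 36 libraries of a region together or all 72 between regions. It tested 19647 genes in DH, 19597 in VH and 20255 together. A standard error is the log2 fold change divided by the root of F, and 2 was the prior count for log2 CPM. Where no other tool is named, an adjusted p is from edgeR. The procedure was tested on simulated data.

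The alternatives were RLE size factors, TMM without the ribosomal protein genes, no filter, DESeq2 1.42.0, only the groups compared, limma-voom (limma 3.58.1) with code number fitted as random, rounded estimated counts summed by gene, libraries left out, and a replicate block between regions. Leaving out single libraries or home cage codes 41A and 42B was added after seeing the data. Among 180 pairs of libraries within groups the lowest chi-square per degree of freedom was 4.51, so none was counted as a repeat.

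Genes, lists and the naming rule were chosen with earlier results of these data known. Named were up to 8 genes per direction with the smallest p where any passed, otherwise the 2 with the smallest p, and a fixed set in strain label and region comparisons; for lists, up to 6 genes per direction. Some genes that the naming rule covers are not reported here.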

Additional observations from a re-analysis of the deposited data

Results flagged for a closer look

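The summed share of ribosomal protein genes and the CPM of 8 genes (Rpl3, Rpl4, Rpl6, Rpl10a, Rpl23, Rpl27, Rps4l and Rps27l) were examined in each of the 12 groups for 1 library far from the other 5 by Dixon's test. Of 108 sets of 6 values, 5 had a gap above 0.625 of the range, and chance alone gives about 1 in 20. In VH labelled 6J, Rpl23 was at 102 CPM in cue library 32C, with the next at 91.7 CPM, and at 120 CPM in home cage library 36A, with the next at 107 CPM. In DH labelled 6NJ, Rpl27 was at 50.7 CPM in library 39B after shock and cue, with the next at 42.3 CPM. Rps27l was at 10.5 CPM in DH home cage library 41B labelled 6NJ, with the next at 9.10 CPM. Rps4l was low, at 20.3 CPM, in VH home cage library 41B labelled 6NJ, where the next was at 24.1 CPM. No library stood apart in the summed share by this test.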

How the results depend on the processing

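Counts of ribosomal protein genes past the threshold are given here where another setting moved them by over 1.5 times. For the cue against the home cage in VH labelled 6J (6 genes), the count was 18 with DESeq2, 11 with TMM without these genes, 10 with estimated counts, 15 with limma-voom, 2 without a filter, 60 with only the groups compared and 0 without the Lcn2 codes; leaving out single libraries gave 2 to 15. For VH labelled 6NJ (47 genes), it was 7 without a filter, 1 with only the groups compared, 23 without the Lcn2 codes and 1 without home cage codes 41A and 42B; single libraries gave 1 to 68. In DH labelled 6J (1 gene), it was 3 with DESeq2, 2 with limma-voom and 0 without the Lcn2 codes, and in DH labelled 6NJ (0 genes) 1 with DESeq2 and 1 with limma-voom. For shock against the home cage in VH labelled 6NJ (2 genes), it was 4 with DESeq2, 1 with RLE, 5 with estimated counts, and 0 without a filter, with only the groups compared or without the Lcn2 codes. Each of these calls was lower, as in the text, and the causes were not tested. Where single VH libraries were left out, calls over all genes moved as well, as given above.

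Between labels as the mean of conditions, DH (20 genes) gave 6 without the Lcn2 codes and 17 to 23 without single libraries, and VH (3 genes) gave 1 without the Lcn2 codes. By condition in DH, the home cage (0 genes) gave 1 with DESeq2, estimated counts, limma-voom, no filter or only the groups compared. The cue (1 gene) gave 2 with DESeq2, 4 with estimated counts, and 0 without a filter, with only the groups compared or without the Lcn2 codes. Shock and cue (3 genes) gave 8 with DESeq2, 6 with estimated counts, 6 with limma-voom and 6 without the DH library 40A. In VH, the cue (0 genes) gave 1 with estimated counts and 2, both lower, with only the groups compared, and the home cage (1 gene) gave 0 with RLE, without a filter, with only the groups compared or without the Lcn2 codes. Between regions (29 genes), the label 6NJ alone gave 10, and the label 6J alone (30 genes) gave 13 without the Lcn2 codes. Fold changes of named genes stayed on the same side of 0 and of the threshold in 1213 cases, lost the threshold in 76 and gained it in 12. Rpl10 between labels in DH was at -0.00 with gene counts and turned to 0.11 with estimated counts. Another scaling moved the median of all genes by at most 0.00852.

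The codes shared by DH and VH libraries were not used as a pairing in the main fit, which treated the libraries as independent. Over 36 pairs the correlation of deviations from group means was -0.215 to 0.514 (median 0.18), and 25 were over 0.1. Among the 6 VH libraries of the same label and condition, 17 of 36 DH libraries correlated best with their own code. That is more often than a random pick among 6 would give, so a pairing is not excluded. With the code as a replicate block between regions, 32 genes passed, 7 higher and 25 lower in DH, and 0 passed for the region by label term. A design of 6 against 6 libraries limits which folds near the medians above can pass.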

Other observations

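Between regions, 63.6% of all genes tested passed, 32.7% higher and 30.9% lower in DH, so counts within a list say little about that list. Of 16 genes of ubiquitin and quality control of ribosomes, 8 were higher and 4 lower (median 0.038, against 0.004 over all genes). Trp53, which encodes p53, was higher in DH (0.25 ± 0.0196, adjusted p = 2.85e-18 by edgeR), as were Mdm2, its ubiquitin ligase (0.15 ± 0.0150), and Zfp598, a sensor of collided ribosomes (0.08 ± 0.0219). Eif2ak4, the kinase GCN2, was lower (-0.19 ± 0.0226). Among importers and chaperones of ribosomal proteins, 8 of 15 were lower in DH, including Tsr2, the chaperone of Rps26 (-0.16 ± 0.0138), and Ipo5 (-0.15 ± 0.0142), and 3 were higher. Of 52 pseudogene models 7 were lower and 3 higher, and Rps12-ps1 had the smallest p of these, with a difference of 2.07 ± 0.127 (adjusted p = 2.56e-23). Between labels, Tsr2 was lower in DH libraries labelled 6NJ (-0.15 ± 0.0217, adjusted p = 8.38e-06).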
